A study of Mus musculus with 8 samples.

Results

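The genes described here are 10 cytokine receptor and signalling genes: the beta chains shared by the receptors for GM-CSF, IL-3 and IL-5, the alpha chains that pair with them, the receptor chains for IL-4 and IL-13, and the transcription factors Stat5a and Stat6. They were taken by symbol from a table of 35494 genes, and all 10 were found in it. The set was selected on values of the comparison described here, the levels in control and scMC38 muscle and the fold changes between them. RNA came from the quadriceps of 8 male mice, all WT on the C57BL/6 background and 8 weeks old when assigned to a group, with 1 library per mouse. The 4 scMC38 mice carried a subcutaneous graft of MC38, an established colon carcinoma line of the mouse, from an injection of 1.0 M cells. The 4 control mice were injected subcutaneously with PBS alone. Muscle was taken after 28 days, and the series title describes the cachexia as mild. Tumour sizes of the single mice were not used here. Of the 10 genes, 9 passed the filter on low counts, and Il5ra did not.

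These receptors work by assembly. An alpha chain (Csf2ra for GM-CSF, Il3ra for IL-3, Il5ra for IL-5) binds its cytokine and recruits the common beta chain Csf2rb, which carries the kinase JAK2 and signals mainly through STAT5. Mice have a further beta chain gene, Csf2rb2, whose product serves the IL-3 receptor. IL-4 binds Il4ra, which then pairs with the common gamma chain Il2rg, mainly in blood cells, or with Il13ra1 in many cell types. Both pairs signal through STAT6. The beta chains are best known from myeloid cells, eosinophils, mast cells and basophils. Il4ra is widely expressed, and in muscle IL-4 is known for its part in fusion of muscle cells and in the response of fibro-adipogenic progenitors to injury.

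Total counts were 50.5 to 62.1 M per library, and fibre genes such as Ckm and Acta1 made up a summed 96947 to 141190 CPM (counts scaled to a common library size, with edgeR's TMM factors) over the 8 libraries, as the tissue label has it. scMC38 1 and scMC38 3 stood apart. Their 12 neutrophil genes summed to 487 and 4453 CPM, against 20.2 and 43.0 CPM in scMC38 2 and 4 and 6.01 to 12.6 CPM in controls. They also held the bone gene Ibsp (40.6 and 137 CPM) and the marrow progenitor gene Mpo (18.3 and 174 CPM). The neutrophil surface gene Ly6g had 0 counts in control 1, 2 and 4 and in scMC38 2. Of the 11 tested neutrophil genes 0 were called by edgeR, with 11 at an unadjusted p under 0.05 (21.0% of all tested genes were). DESeq2 called 10 of the list. Over all 15260 genes it called 6.04% higher and 3.83% lower, and its counts in all marker lists are to be read against those shares. The 12 macrophage and monocyte genes summed to 114 to 161 CPM in controls and to 411, 264, 577 and 132 CPM in scMC38 1 to 4, with 0 called, 8 at an unadjusted p under 0.05 and 7 called by DESeq2. In bulk tissue, a change in the number of cells of a type and a change in RNA per cell cannot be told apart.

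The beta chain genes Csf2rb and Csf2rb2 and the receptor gene Il4ra were higher in every scMC38 library than in every control. Mean levels were 8.65-fold, 6.36-fold and 2.41-fold those of controls. The alpha chain genes Csf2ra and Il3ra were also above all controls, but by little in scMC38 4 and by most in scMC38 3. Il13ra1 and Il2rg overlapped between the groups, and the levels of Stat5a and Stat6 were close in both. In the fit of all genes (edgeR's quasi-likelihood test with Benjamini-Hochberg adjustment, threshold 0.05), 3 of the 9 tested genes were called higher and 0 lower, while 0.737% of the 14112 tested genes were called higher and 0.468% lower. The genes were singled out with results of this same comparison known, so their counts and adjusted p-values are given as a description and nothing is read from them. Their log2 fold changes had a median of 0.91, against 0.000871 over all tested genes, and all 9 were positive. The selection bears on this median and these signs as well, so nothing is read from them either.

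Csf2rb and Csf2rb2 lie next to each other on chromosome 15, with 0 annotated genes between them (RefSeq, GRCm38.p6), and are near copies. Their coding sequences (GENCODE M21, the transcripts with the longest coding sequence, of 2688 and 2634 bases) were identical at 95.2% of the aligned positions, and the longest identical run was 242 bases. Of all 31-base words in the coding sequence of Csf2rb, 39.6% also occur in that of Csf2rb2. The first 150 coding bases are shown because they show how few bases separate the copies, with the 6 differing bases in capitals.
Csf2rb: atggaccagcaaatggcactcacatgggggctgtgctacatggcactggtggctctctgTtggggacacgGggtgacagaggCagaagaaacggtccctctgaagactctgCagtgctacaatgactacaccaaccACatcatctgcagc
Csf2rb2: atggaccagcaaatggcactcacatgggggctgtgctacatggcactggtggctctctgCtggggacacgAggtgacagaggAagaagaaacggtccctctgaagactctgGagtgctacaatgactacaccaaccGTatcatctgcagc

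As the deposited counts were estimated, the division of reads between these genes is uncertain. Csf2rb2 held 57.0%, 45.5%, 51.2% and 53.5% of their summed counts in control 1 to 4 and 48.6%, 48.4%, 38.6% and 48.5% in scMC38 1 to 4. The exact 95% binomial interval was widest in control 2 (38.0% to 53.1% of 178 counts) and narrowest in scMC38 3 (37.1% to 40.1% of 4239 counts), and it covers counting error only. The mean share was 51.8% ± 4.81 in controls and 46.0% ± 4.95 in scMC38 (SD, n = 4), and the groups overlapped. scMC38 3 had the lowest share of all 8 libraries. The sum of the pair does not depend on the division. It was 3.85, 3.29, 5.62 and 7.54 CPM in control 1 to 4 and 36.4, 30.1, 60.4 and 24.3 CPM in scMC38 1 to 4. When the pair was fitted as 1 gene, its log2 fold change was 2.90.

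Csf2rb alone stood at 1.66, 1.79, 2.74 and 3.51 CPM in control 1 to 4 and at 18.7, 15.6, 37.1 and 12.5 CPM in scMC38 1 to 4. Even the lowest scMC38 library was thus well above the highest control. edgeR put its log2 fold change at 3.11, with an SE of 0.40 and an adjusted p of 0.0201. Csf2rb2 stood at 2.19, 1.49, 2.88 and 4.02 CPM in controls and at 17.7, 14.6, 23.3 and 11.8 CPM in scMC38. The corresponding estimate was 2.67 (SE 0.32, adjusted p = 0.0162). The order of the scMC38 libraries was the same for both genes, with scMC38 3 highest and scMC38 4 lowest.

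**Figure D1:**
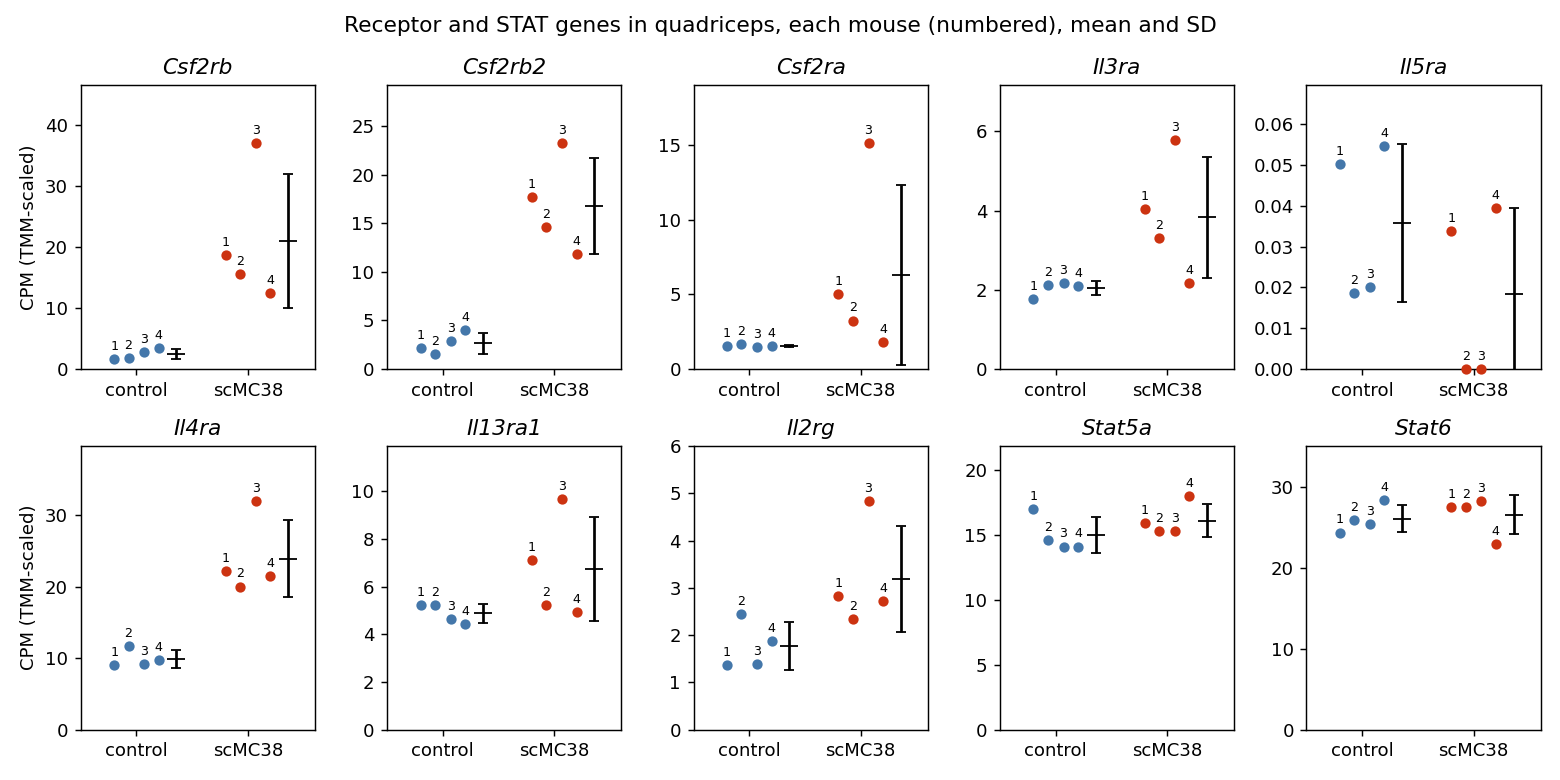
Level of each of the 10 genes in TMM-scaled CPM (vertical axes, each starting at 0) in 4 control and 4 scMC38 mice. Points are mice, numbered by replicate, and the black mark with bar is the mean with SD. Csf2rb, Csf2rb2 and Il4ra show a wide gap between the groups (for Il4ra 11.7 CPM in the highest control and 20.0 CPM in the lowest scMC38 mouse), while Stat5a and Stat6 overlap.

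The alpha chains behaved less evenly across mice. Csf2ra, which makes the receptor specific for GM-CSF, was at 1.51, 1.64, 1.44 and 1.51 CPM in control 1 to 4, a narrow spread. In scMC38 1 to 4 it was at 5.04, 3.24, 15.1 and 1.81 CPM. All 4 were above the controls, but scMC38 4 only by 0.25 on the log2 scale relative to the control mean, against 3.28 in scMC38 3. The log2 fold change of Csf2ra was 2.05 (SE 0.59, adjusted p = 0.112), and 1.14 without scMC38 3. Il3ra, the IL-3 binding chain, was at 1.77, 2.12, 2.16 and 2.09 CPM in controls and at 4.05, 3.31, 5.78 and 2.17 CPM in scMC38. Its log2 fold change was 0.91 (SE 0.28, adjusted p = 0.126). In scMC38 4, Il3ra was at the level of the controls.

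Il5ra, the IL-5 binding chain of eosinophils, had 3, 1, 1 and 3 counts in control 1 to 4 and 2, 0, 0 and 2 counts in scMC38 1 to 4. A library with 0 counts allows up to 3, which is 0.0568 CPM in scMC38 2 and 0.0427 CPM in scMC38 3. Both groups were at or under this limit, so no fold change is given. Other genes listed as eosinophil markers were not all at that level. Ear2, a ribonuclease gene, was at 0.569, 0.461, 0.720 and 0.929 CPM in control 1 to 4 and at 3.42, 2.27, 4.84 and 1.3 CPM in scMC38 1 to 4, without overlap. Prg2, the major basic protein gene, had at most 5 counts in controls and 56, 0, 479 and 4 in scMC38 1 to 4. Epx, eosinophil peroxidase, had at most 5 counts outside scMC38 3 and 80 in it.

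Il4ra, the chain that binds IL-4 and serves both IL-4 and IL-13 receptors, stood at 9.09, 11.7, 9.12 and 9.67 CPM in control 1 to 4 and at 22.1, 20.0, 31.9 and 21.4 CPM in scMC38 1 to 4. Its mean went from 9.90 ± 1.24 to 23.9 ± 5.43 CPM (SD, n = 4). The log2 fold change was 1.27 (SE 0.16, adjusted p = 0.0201). scMC38 1, 2 and 4 lay close together, and scMC38 3 was higher. Il13ra1, a partner of Il4ra in many cell types, was at 5.22, 5.22, 4.66 and 4.44 CPM in controls and at 7.14, 5.24, 9.67 and 4.92 CPM in scMC38. Its log2 fold change of 0.47 (SE 0.21, adjusted p = 0.255) went with scMC38 1 and scMC38 3, since scMC38 4 lay within the range of the controls and scMC38 2 just above it. Il2rg, the partner mainly in blood cells, was at 1.37, 2.45, 1.38 and 1.88 CPM in controls and at 2.83, 2.35, 4.83 and 2.72 CPM in scMC38. Control 2 was above scMC38 2, so the groups overlapped, and edgeR gave 0.85 on the log2 scale (SE 0.29, adjusted p = 0.155).

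The STAT genes of the set were the most even. Stat5a, which relays signals of the beta chains, was at 17.0, 14.6, 14.1 and 14.1 CPM in controls and at 15.9, 15.3, 15.3 and 18.0 CPM in scMC38. Stat5b, the other STAT5 gene, is not in the set and had more counts. It was at 326, 239, 356 and 306 CPM in controls and at 379, 415, 309 and 460 CPM in scMC38, with overlap. Stat6, which relays those of Il4ra, was at 24.4, 26.0, 25.4 and 28.4 CPM in controls and at 27.5, 27.5, 28.3 and 23.0 CPM in scMC38. Log2 fold changes were 0.11 (SE 0.09, adjusted p = 0.529) for Stat5a and 0.03 (SE 0.09, adjusted p = 0.875) for Stat6, and the groups overlapped for both. The sign for Stat6 turned negative in 4 of the alternative fits. In all, 5 of the 9 tested genes had no overlap between the groups, all with scMC38 higher, where 6.82% of all tested genes had none in that direction.

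**Figure D2:**
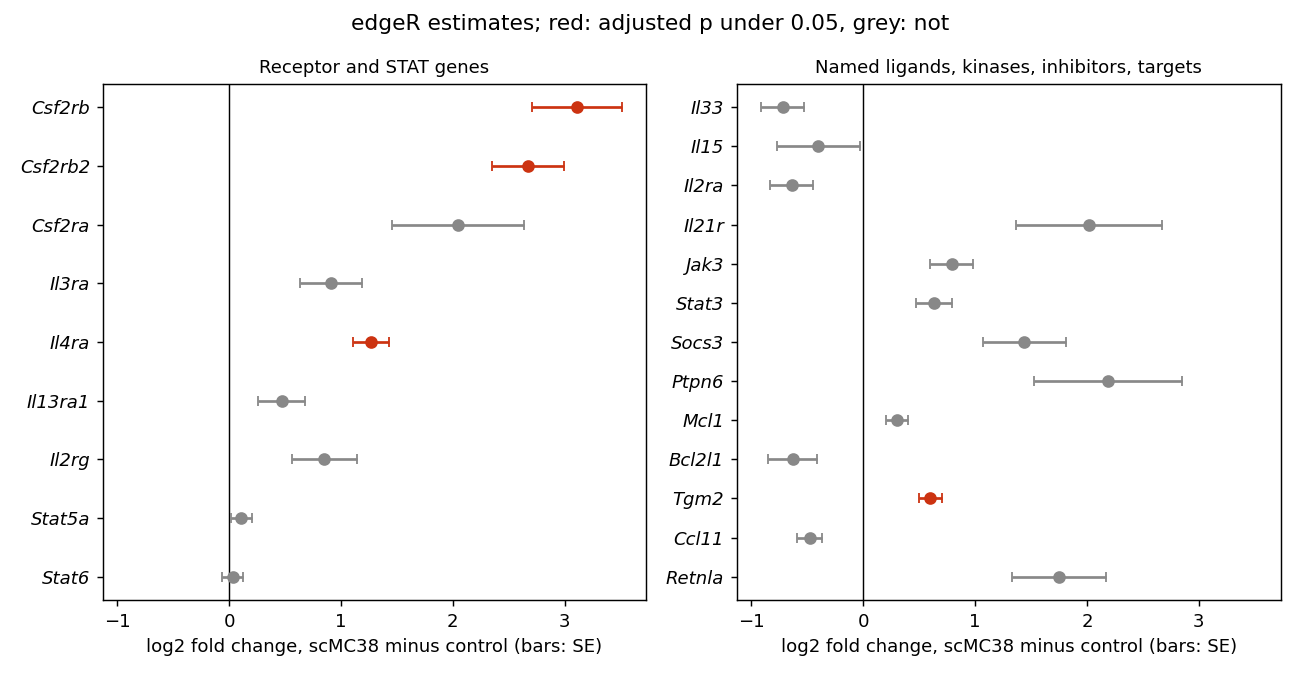
Log2 fold change of scMC38 minus control by edgeR (horizontal axis, bars are SE) for the 9 tested genes on the left and for named genes of the same pathway on the right, red where the adjusted p was under 0.05. Csf2rb (3.11) and Csf2rb2 (2.67) lie farthest to the right, and Stat5a and Stat6 lie near 0.

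To compare levels between genes, CPM were divided by exon length in kb (union over protein-coding transcripts, GENCODE M21). On this scale the control means ran from Stat6 (6.90 ± 0.45 CPM per kb, SD, n = 4) and Stat5a (3.77 ± 0.35) through Il4ra (1.88 ± 0.24), Il13ra1 (1.32 ± 0.11), Il2rg (1.06 ± 0.31), Csf2ra (0.82 ± 0.046), Il3ra (0.798 ± 0.0695) and Csf2rb2 (0.559 ± 0.227) to Csf2rb (0.464 ± 0.167). The beta chain genes thus had the lowest means of the 9 tested genes in control muscle. From Il13ra1 down to Csf2rb, the ranges of neighbours overlapped. In scMC38 the means ran from Stat6 (7.04 ± 0.63 CPM per kb) through Il4ra (4.54 ± 1.03), Stat5a (4.06 ± 0.32), Csf2rb (4.01 ± 2.11), Csf2rb2 (3.55 ± 1.04), Csf2ra (3.38 ± 3.23), Il2rg (1.91 ± 0.67) and Il13ra1 (1.82 ± 0.59) to Il3ra (1.5 ± 0.59). Csf2rb moved from rank 9 to rank 4. Between Il4ra and Il3ra, every pair of neighbours in that order overlapped.

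The balance of chains was compared within each library on the same scale. The summed beta chains over Il3ra came to 1.12, 0.791, 1.34 and 1.85 in control 1 to 4 and to 4.61, 4.66, 5.30 and 5.76 in scMC38 1 to 4, without overlap. Over Csf2ra the ratio was 0.963, 0.745, 1.46 and 1.87 in controls and 2.70, 3.48, 1.48 and 5.02 in scMC38, and scMC38 3 fell within the control range. Il4ra over Il13ra1 was 1.23, 1.58, 1.38 and 1.54 in controls and 2.19, 2.69, 2.33 and 3.07 in scMC38, again without overlap. For Il4ra over Il2rg the groups met, with 1.52 to 2.10 in controls and 2.10 to 2.71 in scMC38. These ratios are descriptions of levels, with no test.

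**Figure D3:**
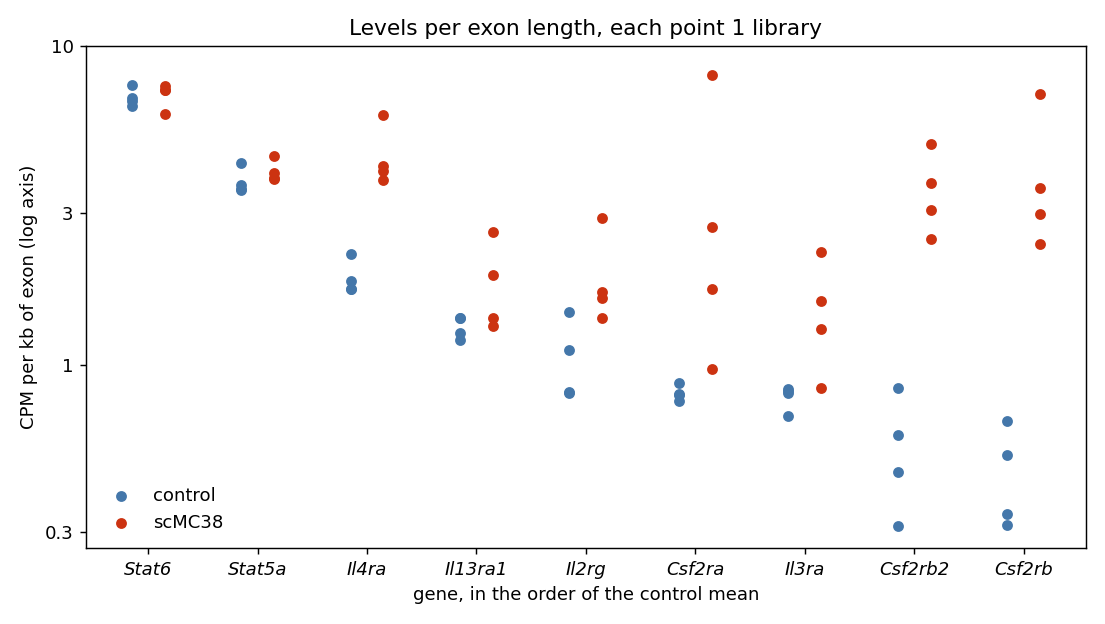
CPM per kb of exon (log axis) for the 9 detected genes, in the order of the control mean, with 1 point per library. Csf2rb has the lowest control mean (0.464) and reaches 2.40 to 7.09 in scMC38 libraries, and Stat6 stays between 6.11 and 7.52 in all 8.

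The leukocyte marker sums differed between the scMC38 libraries, and each library was above the controls on at least 1 of the lists for neutrophils and macrophages. In scMC38 2, Csf2rb was 6.41-fold and Csf2rb2 5.50-fold the control mean, with both marker sums (20.2 and 264 CPM) above the control range. In scMC38 4 they were 5.17-fold and 4.46-fold, with the neutrophil sum (43.0 CPM) above that range, the macrophage sum (132 CPM) within it and 71 counts of Ibsp. Without scMC38 1 and 3 together, the log2 fold changes were 2.55 (SE 0.30, adjusted p = 0.0359) for Csf2rb, 2.34 (SE 0.35, adjusted p = 0.0533) for Csf2rb2 and 1.09 (SE 0.12, adjusted p = 0.0350) for Il4ra. That fit called 0.174% of 14368 genes higher. In the same fit Csf2ra came to 0.75 (from 2.05), Il3ra to 0.45 (from 0.91), Il2rg to 0.54 (from 0.85) and Il13ra1 to 0.08 (from 0.47). The macrophage sums (411, 264, 577 and 132 CPM in scMC38 1 to 4) put these libraries in the same order as Csf2rb and Csf2rb2 did. The part of leukocyte RNA in the values of all these chains was not tested. Of the 7 endothelial genes edgeR called 0, with 2 at an unadjusted p under 0.05, and DESeq2 called 1. Their sums overlapped, with 309 to 486 CPM in controls and 268 to 442 CPM in scMC38. Kdr, a VEGF receptor gene, was the 1 endothelial gene without overlap and was lower, at 16.4 to 25.4 CPM against 32.1 to 73.8 CPM. Of the 7 endothelial estimates, 2 were positive and 5 negative.

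**Figure D4:**
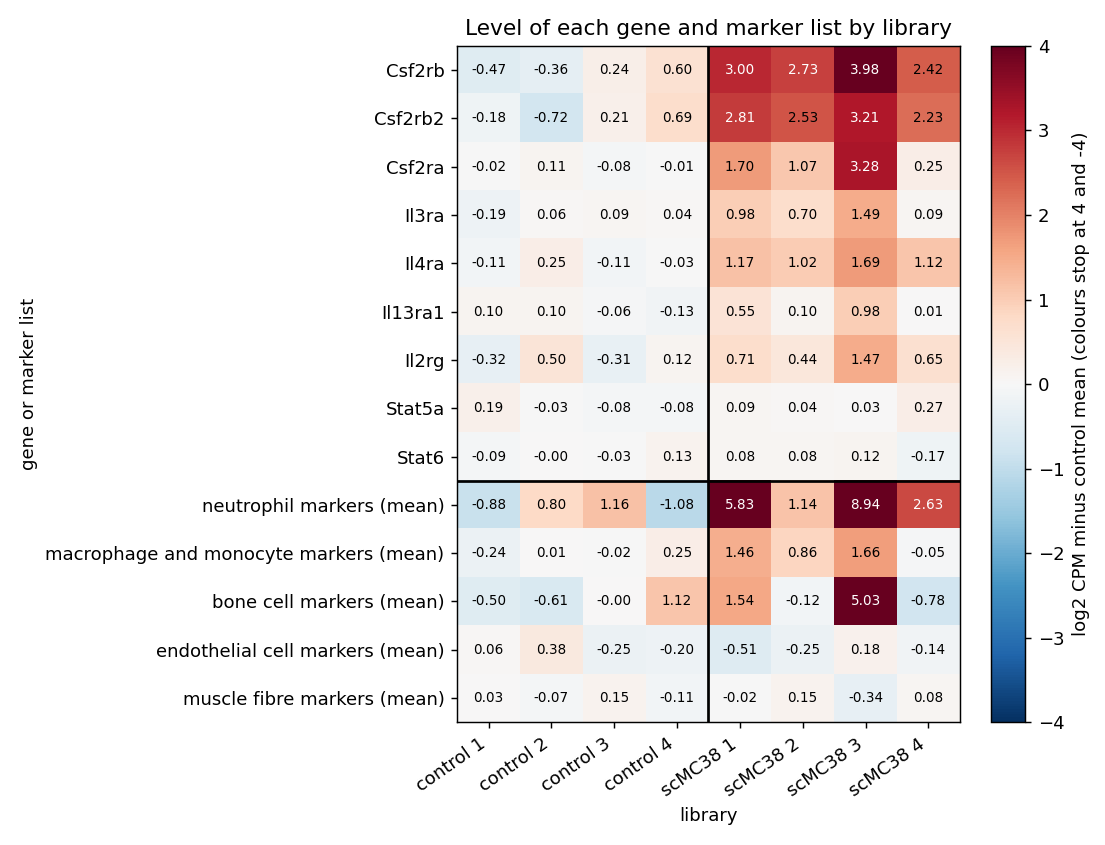
Log2 CPM minus the control mean, by library (columns), for the 9 tested genes and for the mean of 5 marker lists (rows below the line). Csf2rb and Csf2rb2 are between 2.23 and 3.98 in all 4 scMC38 libraries. The neutrophil list ranges from 1.14 in scMC38 2 to 8.94 in scMC38 3. The macrophage and monocyte list ranges from -0.05 in scMC38 4 to 1.66 in scMC38 3.

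The calls depended on single controls. Among the 9 genes, 0 were called higher without control 1 (0.00697% of all genes) or control 3 (0.0768%), and 2 without control 2 (0.112%). The 3 calls were made without control 4 (0.329%) and without scMC38 1 (0.169%), 2 (0.175%), 3 (0.415%) or 4 (0.362%). Csf2rb was not called without control 1, 2 or 3 (adjusted p = 0.0865, 0.0638 and 0.0613), Csf2rb2 not without control 1 or 3 (0.0865 and 0.0590), and Il4ra not without control 1 or 3 (0.0894 and 0.0614). Without control 1 and 2 together their log2 fold changes were 2.73, 2.27 and 1.33, with adjusted p = 0.239, 0.188 and 0.210, in a fit that called 0% of 14737 genes. DESeq2 called 5 of the 9 higher, adding Csf2ra (adjusted p = 0.0045) and Il3ra (adjusted p = 0.0281), where it called 6.04% of 15260 genes higher and 3.83% lower.

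**Figure D5:**
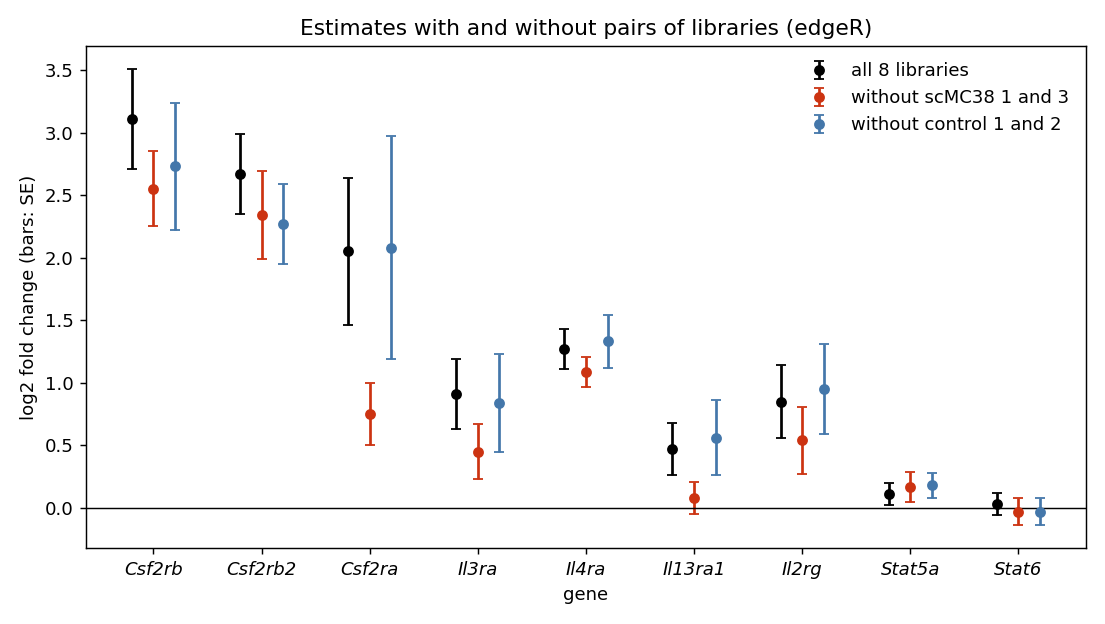
Log2 fold change with SE by edgeR (vertical axis) for each tested gene with all 8 libraries, without scMC38 1 and 3, and without control 1 and 2. Csf2ra falls from 2.05 to 0.75 without scMC38 1 and 3, while Csf2rb, Csf2rb2 and Il4ra stay above 1 in all 3 fits.

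Genes around the receptors were read from 6 lists by role, 71 genes in all, of which 55 were tested. In the fit of all genes, 1 was called higher and 0 lower, 19 had an unadjusted p under 0.05 (21.0% of all tested genes did, so the counts in the lists of this pathway are to be read against that share), and the median log2 fold change was 0.03. The cytokines themselves were barely present. Il3, Il13, Il9 and Il21 had 0 counts in all 8 libraries, Csf2 and Il5 at most 1, Il2 at most 2.2 and Il4 at most 3. Of the 4 tested ligands, 0 were called by edgeR, 1 had an unadjusted p under 0.05 and DESeq2 called 1. The DESeq2 counts in the lists of this pathway stand beside 6.04% of 15260 genes called higher and 3.83% lower. Il33, an alarmin of stromal cells, was at 10.2, 8.67, 8.68 and 6.05 CPM in controls and at 4.74, 4.43, 6.49 and 4.75 CPM in scMC38, a log2 difference of -0.72 (SE 0.19, adjusted p = 0.0930). Il15 had a log2 fold change of -0.40 (adjusted p = 0.565), which turned positive without control 1 and 2.

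Among 6 tested other receptor chains, edgeR called 0, 2 had an unadjusted p under 0.05 and DESeq2 called 1. Il2ra, the IL-2 receptor alpha chain, was lower in every scMC38 library (0.946 to 1.28 CPM) than in every control (1.61 to 2.01 CPM), with a log2 difference of -0.64 (SE 0.19, adjusted p = 0.115). Il21r was at 0.04 to 0.185 CPM in controls and at 0.236 to 1.07 CPM in scMC38 (adjusted p = 0.136). Of 12 kinases, adaptors and other STATs, edgeR called 0 and DESeq2 2, with 3 at an unadjusted p under 0.05. Jak3, the kinase bound to Il2rg, was at 4.88 to 7.20 CPM in controls and at 8.84, 8.97, 13.8 and 8.57 CPM in scMC38, a log2 difference of 0.79 (SE 0.19, adjusted p = 0.0843). Stat3 had a log2 fold change of 0.63 (adjusted p = 0.0882), with scMC38 4 (59.4 CPM) inside the control range.

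Of 12 inhibitors, edgeR called 0 and DESeq2 2, with 3 at an unadjusted p under 0.05. Socs3, a feedback inhibitor of cytokine receptors, was at 2.90 to 4.07 CPM in controls and at 9.51, 7.04, 18.7 and 5.08 CPM in scMC38, a log2 difference of 1.44 (SE 0.37, adjusted p = 0.0909). Ptpn6, the phosphatase SHP-1 of blood cells, followed the libraries with leukocyte markers, at 5.74, 3.05, 19.7 and 2.07 CPM in scMC38 against 1.26 to 1.89 CPM in controls (adjusted p = 0.124). Among 9 tested STAT5 target genes 0 were called by either tool and 4 had an unadjusted p under 0.05, with the survival genes Mcl1 at 0.30 (adjusted p = 0.156) and Bcl2l1 at -0.63 (adjusted p = 0.160) on the log2 scale.

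Of 12 tested STAT6 target genes, edgeR called 1, 6 had an unadjusted p under 0.05, and DESeq2 called 3 higher and 1 lower. Tgm2, the transglutaminase gene, rose from 94.7, 115.1, 115.2 and 114.7 CPM in controls to 152.4, 153.5, 187.1 and 171.1 CPM in scMC38, a log2 difference of 0.60 (SE 0.10, adjusted p = 0.0383). This call was lost in each of the 8 fits that leave out 1 library, with adjusted p from 0.0609 to 0.119. Retnla, a macrophage gene induced by IL-4, was at 8.91, 14.8, 22.6 and 20.9 CPM in controls and at 85.0, 65.2, 52.9 and 22.5 CPM in scMC38, a log2 difference of 1.75 (SE 0.42, adjusted p = 0.0825), and scMC38 4 overlapped the controls. The eotaxin gene Ccl11 was lower in all scMC38 libraries, at 17.3 to 22.2 CPM against 23.8 to 30.7 CPM, a log2 difference of -0.48 (SE 0.11, adjusted p = 0.0779). Of the 12 estimates, 7 were positive and 5 negative.

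Genes with the most similar profile were found by the root mean square difference of log2 CPM over the 8 libraries, each profile centred on its mean, among 10774 genes that leave out the 10 described here. Nearest to Il4ra were Sting1 (0.129), Scarb1 (0.138) and B3gnt3 (0.151), with log2 fold changes of 1.26, 1.29 and 1.02. Nearest to Csf2rb were Tmem252 (0.330), Selp (0.422) and D17H6S56E-5 (0.528), with log2 fold changes of 3.34, 3.26 and 2.82. Csf2rb2, left out of the search, was at 0.296 from Csf2rb, closer than any of these. How much of this closeness comes from the estimated division of reads between these near copies was not tested. Nearest to Il13ra1 were Pcna (0.0738), Shfl (0.0839) and Eml3 (0.0896). The measure grows with the size of a gene's own change, so distances are not compared between Il4ra, Csf2rb and Il13ra1, and they carry no test.

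The 250 bases upstream of the annotated start are shown for Csf2rb2 and Il4ra, called genes of the set with an entry in the RefSeq promoter table (GRCm38.p6), because these genes were higher together. Capitals mark matches, on either strand, to 3 motifs. These are the STAT5-type motif TTCNNNGAA, the STAT6-type motif (TTC and GAA with 4 bases between them) and the ETS-type motif GAGGAA. Shorter ETS-type matches, such as GGAA alone, were not searched for. Csf2rb2 (chr15:78305722-78305971, minus strand) has 1 match to TTCNNNGAA and 1 to GAGGAA. Il4ra (chr7:125552021-125552270, plus strand) has 0 of any of the 3.
Csf2rb2: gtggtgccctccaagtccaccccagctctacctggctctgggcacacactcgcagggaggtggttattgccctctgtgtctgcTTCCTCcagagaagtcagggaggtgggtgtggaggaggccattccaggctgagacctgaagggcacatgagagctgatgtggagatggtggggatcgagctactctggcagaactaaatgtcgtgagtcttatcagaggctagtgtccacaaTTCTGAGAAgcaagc
Il4ra: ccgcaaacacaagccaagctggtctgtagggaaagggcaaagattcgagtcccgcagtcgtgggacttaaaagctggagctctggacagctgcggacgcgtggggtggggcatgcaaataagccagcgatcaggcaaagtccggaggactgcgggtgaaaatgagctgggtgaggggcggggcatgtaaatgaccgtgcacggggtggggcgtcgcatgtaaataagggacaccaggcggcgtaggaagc

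Of 32841 promoters of this length, 7.02% hold TTCNNNGAA, 5.85% hold the STAT6-type motif and 23.3% hold GAGGAA. The match to TTCNNNGAA in Csf2rb2 begins 15 bases before the start. A match is a run of letters and says nothing of binding in these muscles.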

How the data were processed

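Quadriceps RNA of 8 mice was made into libraries with a Universal Plus mRNA-seq kit, per the labels' protocols. Salmon 1.10.3, fastp 1.0.1, MultiQC 1.30, FastQC 0.12.1, R 4.4.3 and the build GRCm39 are listed without roles in the submitters' processing notes. The values are estimated counts as deposited, unscaled, and 49.3% of those above 0 are not whole. The sources used here do not state an annotation release or strand handling. Estimated counts were summed by symbol (26 symbols repeated) and rounded. The 144 rows without a symbol (0.0027% to 0.00403% of a library) were left out. Total counts were 50.5 to 62.1 M per library. At these totals the spread between mice, a biological coefficient of variation of 27.3%, limits precision for genes above a few CPM.

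Differences were fitted in R 4.3.3 using edgeR 4.0.16 (filterByExpr, minimum count 10 and total 15, TMM, robust quasi-likelihood F test, no covariate, Benjamini-Hochberg adjustment over 14112 genes, threshold 0.05), with DESeq2 1.42.0 as an alternative. The fits were run on simulated data with the same spread for all genes, smaller than that between these mice. That run checks the code and not how the fits behave on these data. The SE is that implied by the F statistic, and log2 CPM carry a prior count of 2. Pairs of libraries within a group differed far beyond counting noise (chi-square per degree of freedom 63.2 to 480). The labels give 1 library per replicate and the design text 4 mice per group. Alternatives covered scaling, the filter, the tool, left-out libraries, a replicate block and the beta chain genes summed.

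Members and gene lists were chosen with earlier results of these data known. All 10 receptor and STAT genes are named. Of the pathway lists, each called gene and the 2 uncalled genes of each role with the smallest p are named. Stat5b is given besides, by its levels only, and is not counted among the named pathway genes. Ligands absent from the filter were added, as were genes from the cell type marker lists. The marker genes were Ear2, Prg2, Epx, Siglecf, Ccr3, Ly6g, Ibsp, Mpo, Cd34, Kdr, Col1a1, Col1a2 and Pdgfra. Further ones were Cpa3, Mcpt4, Mcpt8, Tpsb2, Cma1, Ms4a2, Fcer1a, Hdc, Ckm and Acta1. Lists are described by counts and medians, with no set test. Alignment used Biopython 1.88.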

Additional observations from a re-analysis of the deposited data

Results flagged for a closer look

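In 44 groups of 4 libraries (the 9 tested receptor and STAT genes and the 13 named pathway genes), a library was marked where its gap to the nearest other, divided by the range of the group, was above Dixon's 95% critical value. Chance marks about 1 in 20 groups, and 8 were marked here. Among the receptor and STAT genes, Il3ra was low in control 1 (1.77 CPM, next 2.09) and Stat6 was low in scMC38 4 (23.0 CPM, next 27.5). In scMC38 3, Il33 (6.49 CPM, next 4.75), Il21r (1.07 CPM, next 0.304) and Jak3 (13.8 CPM, next 8.97) were above the other scMC38 libraries. Socs3 was low in control 3 (2.90 CPM, next 3.91). Ptpn6 (1.26 CPM, next 1.79) and Tgm2 (94.7 CPM, next 114.7) were low in control 1.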

How the results depend on the processing

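The 9 tested genes and 13 named pathway genes kept their direction in all alternatives that could be fitted, except for Stat6 and Il15. Stat6, at 0.03 with all libraries, ran from -0.00433 (without scMC38 3) to 0.0902 (without scMC38 4) with 1 library left out, with -0.00266 without control 1. It was at -0.0253 when scMC38 1 and 3 were left out and at -0.0289 when control 1 and 2 were, and in the latter Il15 was at 0.451. The called genes of the set numbered 3 higher with all libraries. They numbered 5 with DESeq2, 0 with the replicate block, 0 without control 1 and 2 together and 0 to 3 with 1 library left out. Among pathway genes, 1 was called higher with all libraries, 7 higher and 3 lower with DESeq2, 0 with the replicate block, 0 without either pair of libraries and 0 with any 1 library left out.

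Over all genes, edgeR called 104 higher and 66 lower. Higher calls were 216 with total counts (median log2 fold change over all genes 0.108), 69 with no filter, 921 with DESeq2, 0 with the replicate block, 25 without scMC38 1 and 3 and 1 to 59 with 1 library left out. Lower calls were 584 with DESeq2, 1 with the replicate block, 39 without scMC38 1 and 3 and 1 to 52 with 1 library left out. Without control 1 and 2 both counts were 0, with 1605 genes at an unadjusted p under 0.05. The cause of these moves was not tested. With total counts 80.9% of calls were higher, against 61.2% with TMM.

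The sources used here state no pairing of mice by replicate number. Deviations of same-numbered libraries correlated at -0.113, -0.281, -0.006 and -0.245, and those of differently numbered ones at -0.163 to 0.301. With so few pairs and this scatter, the values cannot settle whether a pairing exists. With the block, adjusted p was 0.129 for Csf2rb, 0.129 for Csf2rb2 and 0.161 for Il4ra. The difference in the Csf2rb2 share (-5.78 percentage points) ran from -7.88 to -3.31 with 1 library left out. At these depths Il5ra and most of the cytokine genes cannot be compared.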

Other observations

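Markers of other cell types known to carry these receptors were also counted, by edgeR over all genes. Of 8 mast cell and basophil genes 5 were tested and 0 called, with 1 at an unadjusted p under 0.05 and 1 called by DESeq2. Their sums were 6.82 to 16.2 CPM in controls and 19.8, 17.9, 29.6 and 6.28 CPM in scMC38 1 to 4. The mast cell protease gene Cpa3 was at 1.06 to 2.93 CPM in controls and 0.926 to 3.24 CPM in scMC38. Of 8 eosinophil genes 1 was tested and 0 called (1 at an unadjusted p under 0.05, 1 called by DESeq2), and their sums were 0.603 to 1.06 CPM in controls and 1.40 to 16.2 CPM in scMC38. Ear2 made up 0.569 of 0.603 CPM in control 1 and 2.27 of 2.29 CPM in scMC38 2. In scMC38 3 it made up 4.84 of 16.2 CPM. Siglecf had at most 2 counts in controls, 0 in scMC38 1, 2 and 4 and 35.9 in scMC38 3. Ccr3 overlapped, with 2, 2, 4 and 6 counts in controls and 10, 1, 15 and 0 in scMC38. A rise of eosinophils in all scMC38 mice was not tested. The 6 B cell genes summed to 0.954 to 1.61 CPM in controls and 0.689 to 12.6 CPM in scMC38, and the 7 T and NK cell genes to 0.335 to 0.535 and 0.217 to 6.91 CPM. scMC38 3 had the highest sum on all 4 of these lists, but on the mast cell and basophil list Hdc, the histidine decarboxylase gene, made up 15.4 of its 29.6 CPM. The mast cell genes Cpa3, Mcpt4, Tpsb2 and Cma1 were lower in scMC38 3 than in scMC38 1 and 2 (Tpsb2 at 4.24 CPM against 6.29 and 5.90 CPM). Mcpt8, Ms4a2 and Fcer1a of the same list went the other way. In scMC38 3 against scMC38 1 and 2, Mcpt8 was at 1.87 against 0.236 and 0 CPM. Ms4a2 was at 0.427 against 0.186 and 0.170 CPM, and Fcer1a at 0.242 against 0.0506 and 0.0946 CPM.

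The 6 dendritic cell genes summed to 8.85 to 13.7 CPM in controls and 7.03 to 11.0 CPM in scMC38. In the same order, the 5 satellite cell genes summed to 18.9 to 24.0 and 12.9 to 21.9 CPM. The 7 fibroblast genes summed to 935 to 1388 and 622 to 4266 CPM. In scMC38 3, Col1a1 (2215 CPM) and Col1a2 (1329 CPM) made up most of that sum. The other fibroblast genes were under their control means there (Pdgfra 33.7 against 39.0 CPM). The 6 bone cell genes summed to 6.00 to 22.1 and 6.11 to 571 CPM. The 8 marrow progenitor genes summed to 67.3 to 76.8 and 44.0 to 470.1 CPM. Most of the control sum was Cd34, at 66.2 to 75.6 CPM. Cd34 was at 52.2 CPM in scMC38 2 and 43.1 CPM in scMC38 4, while Mpo was at most 0.1 CPM in controls. On the 7 lists of B, T and NK, dendritic, satellite, fibroblast, bone and marrow progenitor genes edgeR called 0. The unadjusted p was under 0.05 for 1 B cell, 0 T and NK cell, 3 dendritic cell, 2 satellite cell, 1 fibroblast, 1 bone cell and 2 marrow progenitor genes, and DESeq2 called 1, 0, 0, 1, 1, 1 and 5 in the same order.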
